A study of Homo sapiens with 12 samples.

Results

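The genes described here are 38 genes of homologous recombination and the Fanconi anaemia pathway, chosen by gene symbol from the 3 tables in which RNA of compound-treated cells was compared with RNA of DMSO-treated cells. All 38 were listed in each table, out of 18534, 27126 and 15255 genes in the tables of SAHA, compound 1 and a6. The cells were MDA-MB-231, a human cell line from a breast cancer without hormone receptors or amplified HER2, which was given SAHA, compound 1 or a6 at 2.5 µM, or DMSO alone (Ctrl), and was collected after 48 h. Each of the 4 groups had 3 libraries that the labels call biological replicates, so p-values measure the spread between these libraries, which may be technical in part. SAHA (vorinostat) inhibits histone deacetylases (HDACs). The submitters class SAHA and compound 1 as compounds with a single target and a6 as one directed at both HDACs and G-quadruplexes (G4s), which are folded structures of guanine-rich DNA or RNA.

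Homologous recombination repairs a DNA double-strand break by copying the intact sister chromatid. Nucleases first resect the broken ends to single-stranded tails, BRCA1 with BARD1, PALB2 and BRCA2 then act on these tails, and RAD54 motors help them invade the template. The Fanconi pathway detects crosslinks between DNA strands: a core ubiquitin ligase, with the E2 enzyme UBE2T, modifies the FANCD2 and FANCI clamp, and nucleases then cut out the lesion, which is finished by recombination. Many of these genes are transcribed in S and G2 phase, when a sister chromatid is present.

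The files hold group comparisons and no value per library, so each level below is a group mean of normalized read counts, computed from the mean count and fold change in the authors' deposited table, and values written with ± are a log2 fold change and its deposited standard error. No library totals are given, so depth per library is not known. The mean count of the 38 genes over both groups ran from 18.8 to 1021 in the authors' deposited table for SAHA, with a median of 174. The deposited standard errors ran from 0.27 to 0.71 for SAHA, from 0.20 to 0.98 for compound 1 and from 0.21 to 0.77 for a6. Of the markers of the line, VIM, CD44, EGFR, KRT8 and KRT18 had mean counts from 2944 to 20220.1 in the authors' deposited table for SAHA, while the hormone receptor genes ESR1 and PGR had 0.489 and 0.317 in that for compound 1. ERBB2, the HER2 gene, listed as low, had 1715 in the authors' deposited table for SAHA. Among genes listed as markers of other cell types, PTPRC, CD3E, ALB, HBB and DCN were in none of the 3 tables. EPCAM and COL1A1, also in that list, had mean counts of 141 and 243 in the authors' deposited table for SAHA. EPCAM is an epithelial gene and does not mark other cells in a breast cancer line. The part of both genes in the results was not tested.

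SAHA lowered 2 of the 38 genes, RAD54L and FANCA, and raised 0, by the authors' DESeq2 Wald test with adjusted p-values under 0.05. This is 5.26% of the 38 as lowered, while over all genes tested 3.02% were called as lowered, 4.53% as raised and 7.55% in either direction. The median log2 fold change of the 38 was -0.36, against -0.01 over all genes, and 32 of the 38 lay below 0 and 6 above, where 50.7% and 49.3% of all genes did. At an unadjusted p under 0.05, 8 of the 38 were lower and 1 was higher in the authors' deposited table, against 8.27% and 10.2% of all genes. Proliferation markers moved in the same comparison: of 26 listed, 13 fell and 0 rose, with a median log2 fold change of -0.88. The lowest adjusted p-values among them were those of TYMS, the thymidylate synthase gene, and KIF20A, a mitotic kinesin gene, at -1.41 and -1.74 in the authors' deposited table. The summed level of the 26 markers was 34129.9 with SAHA, against 62970.2 in Ctrl. The summed level of the 38 genes was 8217 with SAHA, against 11051 in Ctrl. The part of cell cycle changes in these values was not tested, and fewer cells of a cycling state and less RNA per cell cannot be told apart in bulk RNA.

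**Figure D1:**
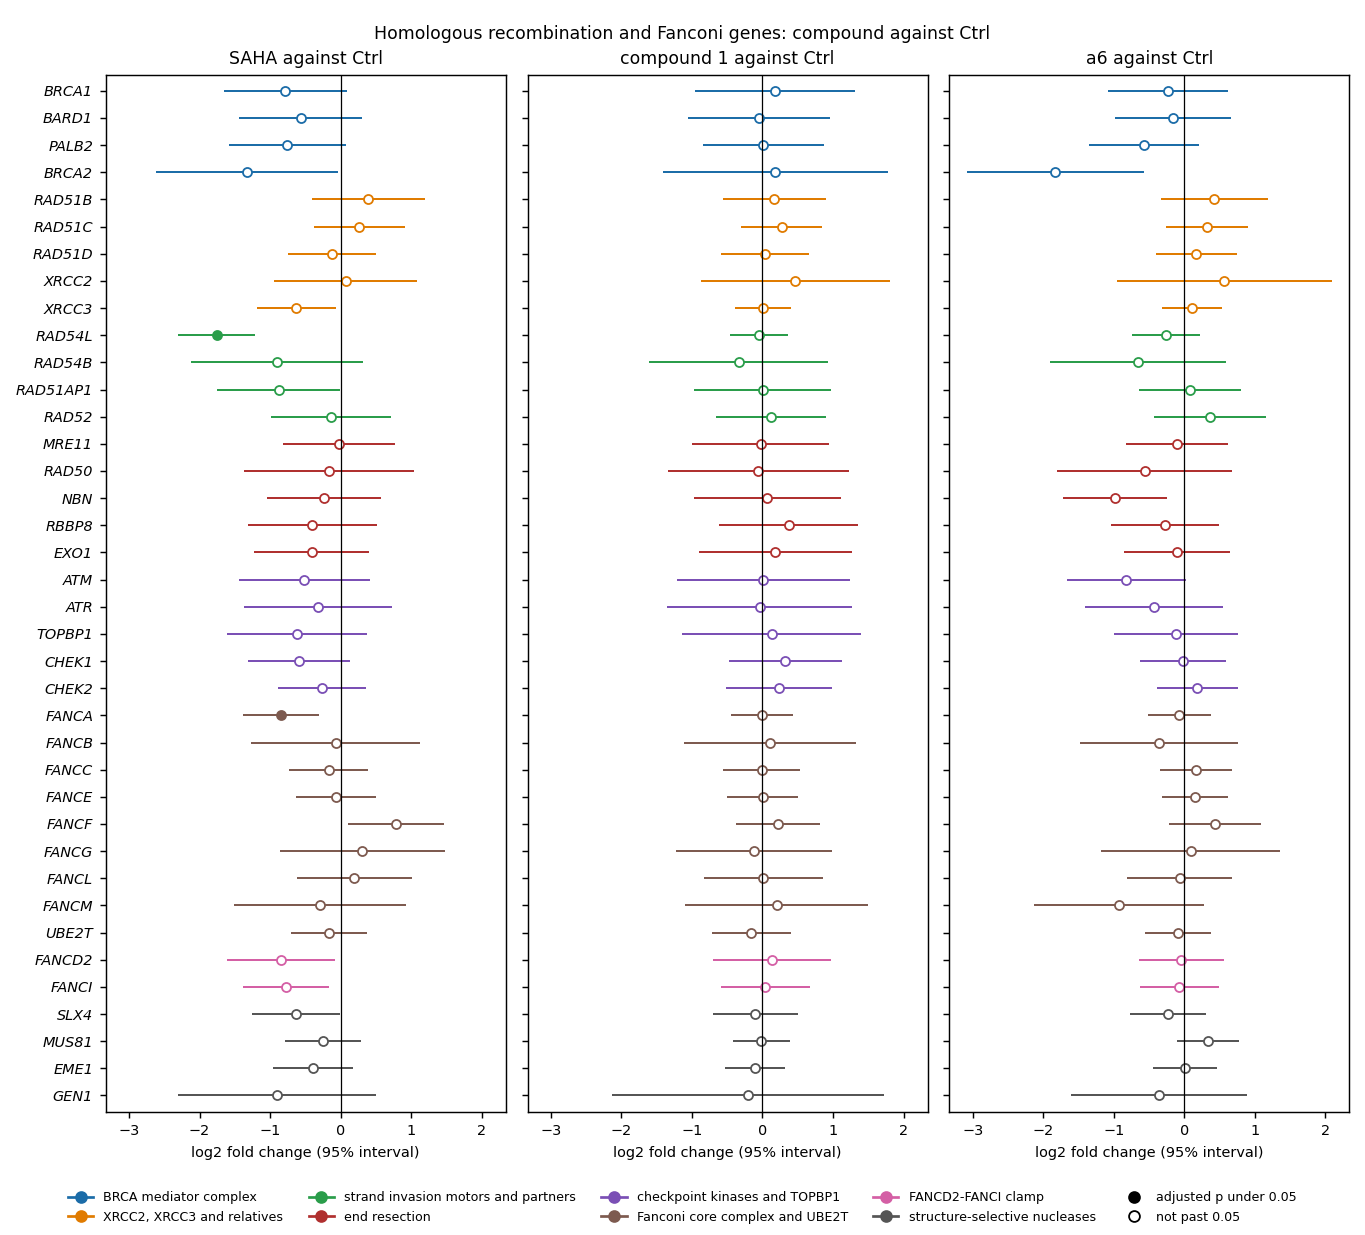
Log2 fold change of each of the 38 genes (points) with its 95% interval (lines) for SAHA, compound 1 and a6 against Ctrl, computed from the authors' deposited tables; colours give the role groups and filled points an adjusted p under 0.05. With SAHA RAD54L and FANCA are filled, and with compound 1 and a6 0 of 38 are.

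RAD54L encodes a motor protein that helps strand invasion. It had a mean normalized count of 145 with SAHA, against 491 in Ctrl, which is 29.6% of the Ctrl level. RAD54L thus fell by 1.76 on the log2 scale in the authors' deposited table, where the standard error was 0.27 and the DESeq2 adjusted p 2.22e-08. The gene lies on chromosome 1, 46247688 to 46278473, plus strand (GRCh38, GENCODE 29), and LRRC41 on the other strand covers 25.1% of its exon bases. LRRC41 itself fell by 1.07 with SAHA in the authors' deposited table (standard error 0.30, adjusted p = 0.00777). The sources used here do not say if counting was strand-specific, so reads of the shared stretch may belong to either gene. FANCA, a subunit of the Fanconi core complex, had a mean count of 604 with SAHA, against 1085 in Ctrl. FANCA fell by 0.84 ± 0.27 in the authors' deposited table (DESeq2 adjusted p = 0.0277). With a trend of fold change on transcript GC content removed, FANCA was at -0.72 with an adjusted p of 0.0850, and with p-values adjusted over all 3 tables its adjusted p was 0.0789. FANCA lies on chromosome 16, 89737549 to 89816657, minus strand, and ZNF276 on the other strand covers 23.6% of its exon bases; ZNF276 was at -0.46 ± 0.26 in the authors' deposited table for SAHA.

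The promoter windows of the 2 genes that SAHA lowered are shown because these genes carry the calls, and the motifs are those by which cell cycle genes are known to be driven. They are the RefSeq windows on GRCh38.p14, cut to 250 bases before and 30 bases after the start, at chr1:46247438-46247717 on the plus strand for RAD54L and chr16:89816618-89816897 on the minus strand for FANCA. Capitals mark CCAAT boxes (CCAAT or ATTGG) and, in FANCA, a sequence of the E2F type.
RAD54L: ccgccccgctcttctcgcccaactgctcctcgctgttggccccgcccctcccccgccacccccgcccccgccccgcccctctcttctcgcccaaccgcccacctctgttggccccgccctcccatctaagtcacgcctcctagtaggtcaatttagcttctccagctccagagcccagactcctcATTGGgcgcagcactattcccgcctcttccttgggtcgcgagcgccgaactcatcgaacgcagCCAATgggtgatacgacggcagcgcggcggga
FANCA: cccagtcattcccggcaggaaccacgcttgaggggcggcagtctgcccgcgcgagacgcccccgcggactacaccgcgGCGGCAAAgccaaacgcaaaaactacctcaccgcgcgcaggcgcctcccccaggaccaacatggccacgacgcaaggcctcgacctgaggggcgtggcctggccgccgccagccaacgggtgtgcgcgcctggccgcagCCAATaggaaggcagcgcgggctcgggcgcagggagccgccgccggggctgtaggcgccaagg
RefSeq lists another RAD54L start downstream of this one. E2F sites were searched as TTTCCCGC, TTTCGCGC, TTTGCCGC or TTTGGCGC on both strands in the whole 300 bases of each window. Of the 35 genes with a window 7 held one, against 3.99% of the 27305 gene symbols with a window: XRCC2, EXO1, TOPBP1, FANCA, FANCC, FANCD2 and GEN1. A CCAAT box was in 15 of the 35, or 42.9%, against 39.7% of all, and the cell cycle element TTTGAA, also on both strands, was in 3, or 8.57%, against 18.2% of all. Of the 7 genes with an E2F-type site FANCA passed with SAHA. The other 6 ran from 0.07 ± 0.51 for XRCC2, -0.17 ± 0.28 for FANCC and -0.41 ± 0.41 for EXO1 to -0.62 ± 0.50 for TOPBP1, -0.85 ± 0.38 for FANCD2 and -0.91 ± 0.71 for GEN1 in the authors' deposited table for SAHA. These matches are letters in a window and do not show binding.

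The mediator complex genes all lay below Ctrl with SAHA, and 0 of 4 passed the adjusted test. BRCA2, which acts with PALB2 on resected ends, had a mean count of 16.8 with SAHA, against 42.3 in Ctrl, at -1.33 ± 0.65 in the authors' deposited table (adjusted p = 0.241). BRCA1, at -0.79 ± 0.44 in the authors' deposited table, had 75.3 with SAHA, against 130 in Ctrl. Its partner BARD1 was at -0.57 ± 0.44, and PALB2, the link between BRCA1 and BRCA2, at -0.76 ± 0.42, in the authors' deposited table. BRCA2 is in the authors' own list of genes lowered by SAHA, which takes a 2-fold or larger change at an unadjusted p under 0.05. RAD51B, RAD51C, RAD51D, XRCC2 and XRCC3, related genes needed for efficient recombination, lay on both sides of 0. RAD51B, RAD51C and XRCC2 were at 0.40, 0.26 and 0.07, and RAD51D at -0.12, with standard errors of 0.40, 0.32, 0.51 and 0.31 in the authors' deposited table. XRCC3, whose exons KLC1 covers to 76.7% on the other strand, was lowest of the 5, with a mean count of 803 with SAHA, against 1239.6 in Ctrl, at -0.63 ± 0.28 (adjusted p = 0.170) in the authors' deposited table. The relatives and partners of RAD54L did not pass with SAHA. RAD51AP1, which promotes strand invasion, was at -0.88 ± 0.44, RAD54B at -0.90 ± 0.62, and the annealing protein RAD52 at -0.14 ± 0.43 in the authors' deposited table.

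The end resection genes were closest to Ctrl among the groups in which all genes lay below 0 with SAHA. MRE11 and RAD50, the nuclease and the tether of the MRN complex, were at -0.02 and -0.16, and NBN, the other subunit, at -0.24, with standard errors of 0.40, 0.61 and 0.40 in the authors' deposited table. RBBP8 (CtIP), which starts resection, and the exonuclease EXO1 were at -0.40 ± 0.46 and -0.41 ± 0.41 in the authors' deposited table. Of the break and fork signalling genes, the kinases ATM, ATR, CHEK1 and CHEK2 and the ATR activator TOPBP1, 0 of 5 passed, with log2 fold changes between -0.62 for TOPBP1 and -0.26 for CHEK2 in the authors' deposited table. CHEK1 had 240.1 with SAHA, against 361 in Ctrl.

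The Fanconi core genes were split with SAHA. Of the 9 genes of this group 6 were below 0, FANCA among them, and 3 were above. FANCF, an adaptor of the core complex encoded by a gene without introns, had the highest fold change of the 38: its mean count was 162 with SAHA, against 93.5 in Ctrl, at 0.79 ± 0.34 (adjusted p = 0.154) in the authors' deposited table. FANCG and FANCL, a scaffold and the ligase subunit, were at 0.31 ± 0.59 and 0.19 ± 0.41 in the authors' deposited table. FANCB, FANCC, FANCE, FANCM and UBE2T lay between -0.30 for FANCM and -0.07 for FANCE in the authors' deposited table. The clamp genes were lower without passing: FANCD2 had 149 with SAHA, against 269 in Ctrl, at -0.85 ± 0.38 (adjusted p = 0.190) in the authors' deposited table. FANCI had 404 with SAHA, against 692 in Ctrl, at -0.78 ± 0.30 (adjusted p = 0.106) in the authors' deposited table. Among the nuclease genes SLX4, the scaffold that recruits the others, was at -0.63 ± 0.31 (adjusted p = 0.244) in the authors' deposited table. GEN1, which resolves joint molecules, was at -0.91 ± 0.71, and MUS81 and its partner EME1 at -0.26 ± 0.27 and -0.39 ± 0.28, in the authors' deposited table. For 11 of the 38 genes the 95% interval lay within a 2-fold change in either direction, against 36.7% of all genes, so for the other 27 a change of that size was not excluded.

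**Figure D2:**
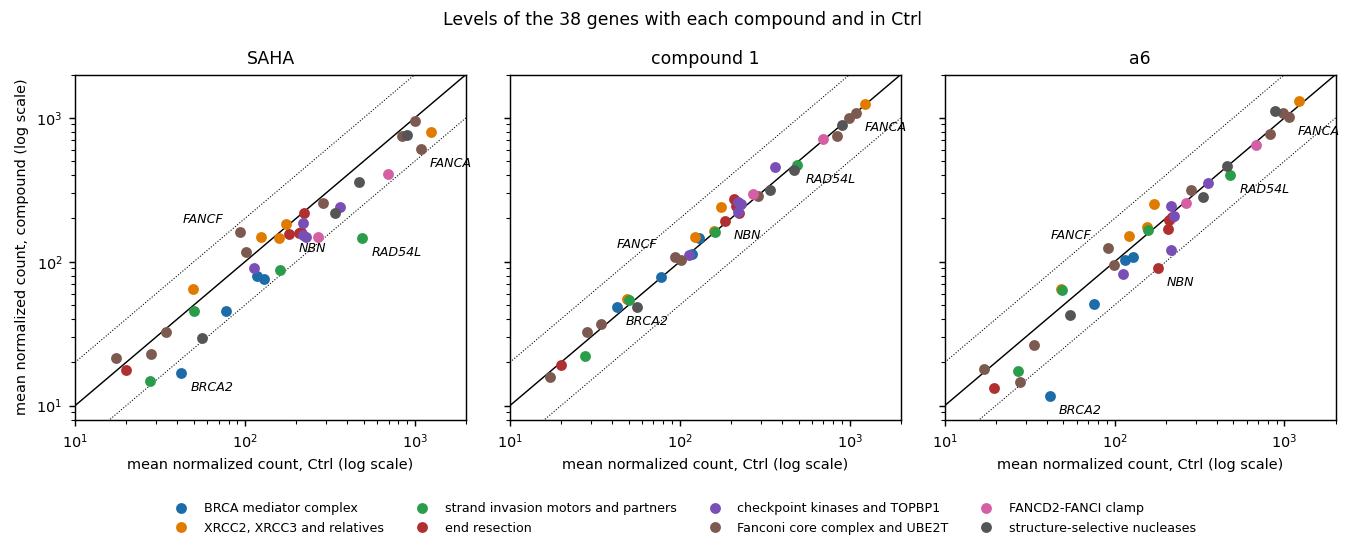
Mean normalized count of each of the 38 genes with SAHA, compound 1 or a6 (vertical, log scale) against that in Ctrl (horizontal, log scale), computed from the authors' deposited tables; the solid line marks equal levels and the dotted lines a 2-fold change, and colours give role groups. RAD54L with SAHA (145 against 491 in Ctrl) and BRCA2 with SAHA and a6 (16.8 and 11.7, against 42.3 and 41.5 in Ctrl) lie below the lower dotted line.

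Compound 1 changed 0 of the 38 genes in the authors' DESeq2 test, in which 0% of all genes were called. At an unadjusted p under 0.05 the count was also 0 of 38, against 0.107% of all genes as raised and 0.0922% as lowered. Over genes with a mean count of 50 or more, the Wald statistic of compound 1 had a spread of 0.504. This is narrower than the standard normal distribution on which the p-values rest. The test and the intervals with compound 1 were thus cautious, also in the differences between compounds. The median of the 38 was 0.01, against 0.01 over all genes, and 24 of 38 lay above 0 and 14 below, against 51.4% and 48.6% of all genes. RAD54L had 473 with compound 1, against 490.4 in Ctrl, at -0.05 ± 0.20 in the authors' deposited table, with a 95% interval from -0.45 to 0.35. FANCA had 1077 with compound 1, against 1084 in Ctrl, and BRCA2 had 48.1 with compound 1, against 42.5 in Ctrl. The highest and lowest of the 38 were XRCC2 at 0.46 ± 0.68 and RAD54B at -0.34 ± 0.64 in the authors' deposited table (adjusted p = 1.00 for each, DESeq2). RAD51B, RAD51C, RAD51D, XRCC2 and XRCC3 were all above 0, with XRCC3 the lowest at 0.01 ± 0.20 in the authors' deposited table. The interval lay within a 2-fold change for 21 of the 38, against 37.7% of all genes. The lowest mean count listed was 0.145 for compound 1, 2.44 for SAHA and 9.31 for a6, with medians of 23.0, 147 and 231. Shares over all genes thus rest on different sets of genes for each compound, with more low-count genes for compound 1. Mitochondrially encoded genes, taken here to gauge RNA quality, were at a median of -0.23 with compound 1, 0.06 with SAHA and -0.01 with a6. All 13 lay below 0 with compound 1, 3 with SAHA and 8 with a6, and 0 of 13 passed in each table. The relation of these 13 genes to the 38 was not tested.

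With a6 0 of the 38 genes passed the authors' DESeq2 test, in which 0.583% of all genes were called. At an unadjusted p under 0.05, BRCA2 and NBN were lower and 0 were higher, which is 5.26% and 0% of the 38, against 4.35% and 3.06% of all genes. The median of the 38 was -0.08, against -0.03 over all genes, and 24 of 38 lay below 0, where 54.1% of all genes did. The summed level of the 38 was 10827 with a6, against 10819 in Ctrl, and 0 of the 26 proliferation markers passed.

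BRCA2 had the lowest fold change with a6, with a mean count of 11.7, against 41.5 in Ctrl. BRCA2 was at -1.83 ± 0.63 in the authors' deposited table, with an unadjusted p of 0.00381 and an adjusted p of 0.225 (DESeq2). It is the one gene of the 38 in the authors' own list of genes lowered by a6. It lies on chromosome 13, 32315474 to 32400266, and no exon of another gene overlaps it. NBN had 90.8 with a6, against 179 in Ctrl, at -0.98 ± 0.37 (adjusted p = 0.326) in the authors' deposited table. FANCM, the core complex translocase, was at -0.93 ± 0.61, and ATM at -0.82 ± 0.42, in the authors' deposited table. PALB2 and RAD50 were at -0.57 ± 0.39 and -0.56 ± 0.63 in the authors' deposited table. RAD51B, RAD51C, RAD51D, XRCC2 and XRCC3 were all above 0 with a6, as with compound 1, which shares the Ctrl libraries. With a6, where 45.9% of all genes were above 0, they ran from 0.11 for XRCC3 to 0.57 for XRCC2, which was the highest of the 38 and had the largest standard error, 0.77, in the authors' deposited table. RAD54L had 399.9 with a6, against 480.3 in Ctrl, at -0.26 ± 0.24 in the authors' deposited table, and its 95% interval ran from -0.73 to 0.20. FANCA had 1013 with a6, against 1062 in Ctrl, at -0.07 ± 0.22 in the authors' deposited table. FANCD2 and FANCI were at -0.04 ± 0.30 and -0.07 ± 0.28 in the authors' deposited table. MUS81 and FANCF were at 0.34 ± 0.21 and 0.44 ± 0.33 in the authors' deposited table. The interval lay within a 2-fold change for 21 of the 38, against 62.2% of all genes.

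**Figure D3:**
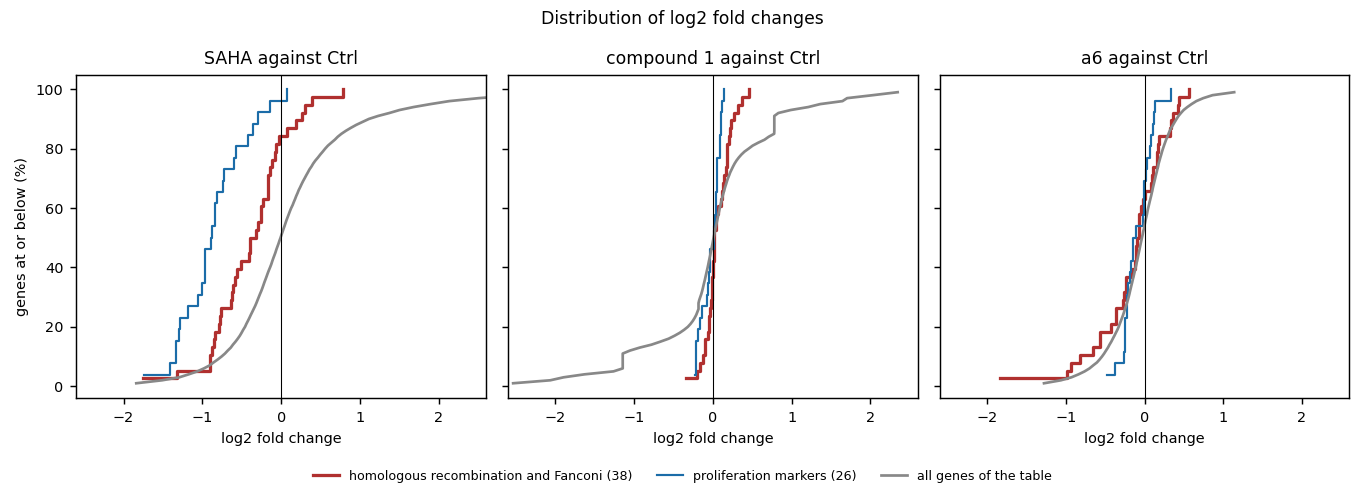
Share of genes at or below each log2 fold change (vertical, percent; horizontal, log2) for the 38 genes, the 26 proliferation markers and all genes of each table, drawn from percentile 1 to 99 and within the plotted range for all genes. With SAHA the median of the 38 (-0.36) lies between that of the proliferation markers (-0.88) and that of all genes (-0.01). With compound 1 and a6 the medians of the 38 are 0.01 and -0.08.

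The fold changes were next set against transcript length and base composition, with the longest coding transcript of each gene in GENCODE 29. Which transcripts these cells express is not known here, so the lengths and GC contents may not be those of the expressed ones. With a6 the longer and more AT-rich of the 38 genes lay lower: Spearman's rho across the 38 was -0.59 with transcript length and 0.60 with GC content. Over the 31 of them whose mean count was 50 or more it was -0.54 and 0.43, against -0.14 and 0.05 over all 11567 such genes. BRCA2 and FANCM are among the 7 below that count. BRCA2, with a transcript of 11986 bases and 36.3% GC, was the lowest. ATM, with 13147 bases and 39.1% GC, and FANCM, with 7111 bases and 37.7% GC, were also low. MUS81, with 2392 bases and 60.6% GC, was above 0. Other genes departed from this order: RAD51AP1, with 36.0% GC, was at 0.08 ± 0.36 with a6, and RAD51D, with 9988 bases, at 0.17 ± 0.29, in the authors' deposited table. With SAHA rho over the 30 genes at that count was -0.33 with length and -0.05 with GC content, against 0.00 and -0.24 over all 11820 such genes. With compound 1 it was -0.14 and -0.17 over 32 genes, against 0.20 and -0.41 over 11676. These genes come from the same libraries, and across the 38 GC content had a rho of 0.58 with mean count in the a6 table and -0.30 with length, so the values are a description. The deposited standard errors of the 38 genes in the SAHA comparison had a rho of -0.70 with GC content and -0.84 with mean count. The AT-rich and low-count genes of the 38 thus tend to have the wider intervals. The cause of these relations was not tested.

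**Figure D4:**
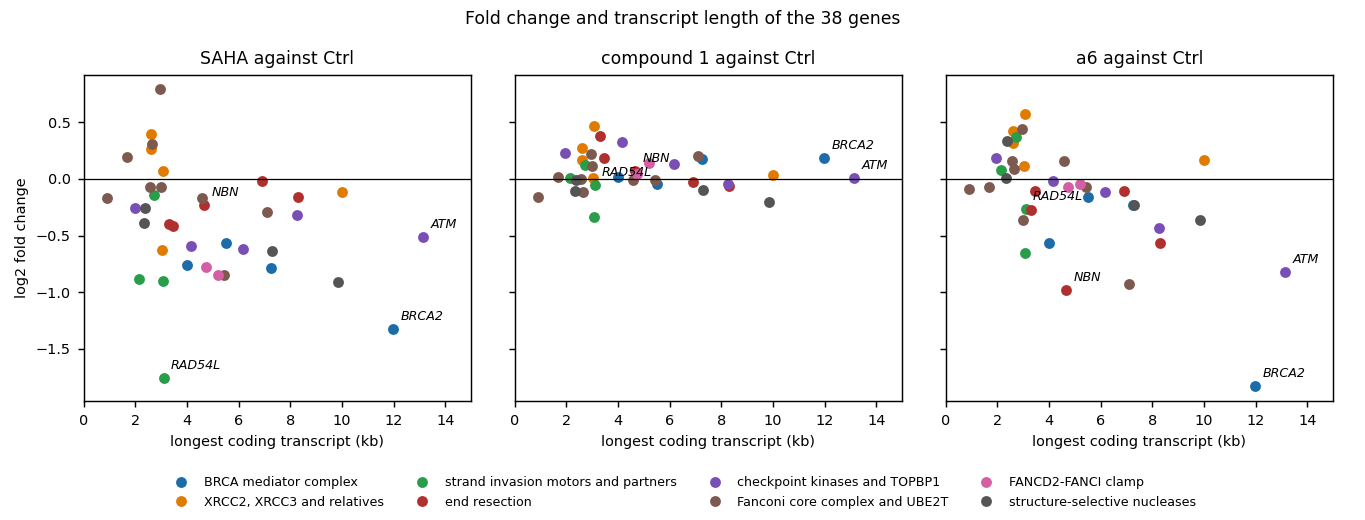
Log2 fold change against Ctrl (vertical) and length of the longest coding transcript in kb (horizontal) for the 38 genes with each compound, computed from the authors' deposited tables; points are genes, coloured by role group. With a6 BRCA2 (-1.83) and ATM (-0.82) lie low at the right, and with compound 1 all points lie between -0.34 and 0.46.

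Whether the compounds differed was tested on the differences of the deposited log2 fold changes, at the same dose and time, with 3 pairs of compounds for each gene and p-values adjusted over all genes that 2 tables share. The tables were normalized separately, and the shared Ctrl libraries make the standard errors too large for a difference. RAD54L differed in both pairs with SAHA, which contain the same SAHA fold change and so are not independent. In a6 minus SAHA its difference was 1.49 (standard error 0.36), with a 95% interval from 0.79 to 2.20 (two-sided z test across all genes, adjusted p = 0.0214), computed from -0.26 with a6 and -1.76 with SAHA in the authors' deposited tables. RAD54L was the 1 gene of 38 called in that pair, where 0.256% of all genes were called and 0.059% as higher. At an unadjusted p under 0.05 the z test gave 3 of 38 (RAD54L, FANCA and XRCC3), against 5.56% of all genes. With an error correlation of 0.5 for the shared Ctrl libraries, an alternative, the unadjusted z test gave 7 of 38 in this pair (also RAD51AP1, FANCD2, FANCI and MUS81), against 14.8% of all genes. In SAHA minus compound 1 its difference was -1.71 (standard error 0.34), with an interval from -2.37 to -1.04 (adjusted p = 0.000285), and it was the 1 gene of 38 called, where 1.06% of all genes were called and 0.481% as lower. Unadjusted, RAD54L and FANCA passed there, 2 of 38, against 7.26% of all genes, and with the error correlation 7 did, against 16.7%. In a6 minus compound 1, 0 of the 38 passed the z test, against 0.0328% of all genes (0.00656% as higher, 0.0262% as lower). Unadjusted, 1 of 38, BRCA2, passed there, against 1.46% of all genes, and with the error correlation BRCA2 and NBN did, against 5.55%. RAD54L was at -0.21 there, with an interval from -0.83 to 0.40.

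FANCA, called with SAHA and not with the other compounds, was not shown to differ between them. Its difference in a6 minus SAHA was 0.78 with an interval from 0.10 to 1.45 (z test, adjusted p = 0.709), and in SAHA minus compound 1 it was -0.84 with an interval from -1.51 to -0.16 (adjusted p = 0.418). With an error correlation of 0.5 for the shared Ctrl libraries these adjusted p-values were 0.0481 and 0.0195, so the call depends on how the shared Ctrl is treated. BRCA2 had differences of -0.50 in a6 minus SAHA, with an interval from -2.28 to 1.27, and -2.01 in a6 minus compound 1, from -4.02 to -0.00449 (z test, adjusted p = 1.00 for each). For XRCC3 a6 minus SAHA was 0.74, from 0.06 to 1.42 (adjusted p = 0.777). The interval of the difference lay within 2-fold for 3 of 38 genes in a6 minus SAHA (RAD51C, FANCE and UBE2T), against 25.4% of all genes. That count was 13 in a6 minus compound 1, against 36.9% of all, and 6 in SAHA minus compound 1, against 17.7%. With the error correlation of 0.5 these counts were 11 in a6 minus SAHA, 19 in a6 minus compound 1 and 10 in SAHA minus compound 1, against 51.6%, 59.5% and 37.3% of all genes. For genes outside these counts the interval reached a 2-fold difference.

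**Figure D5:**
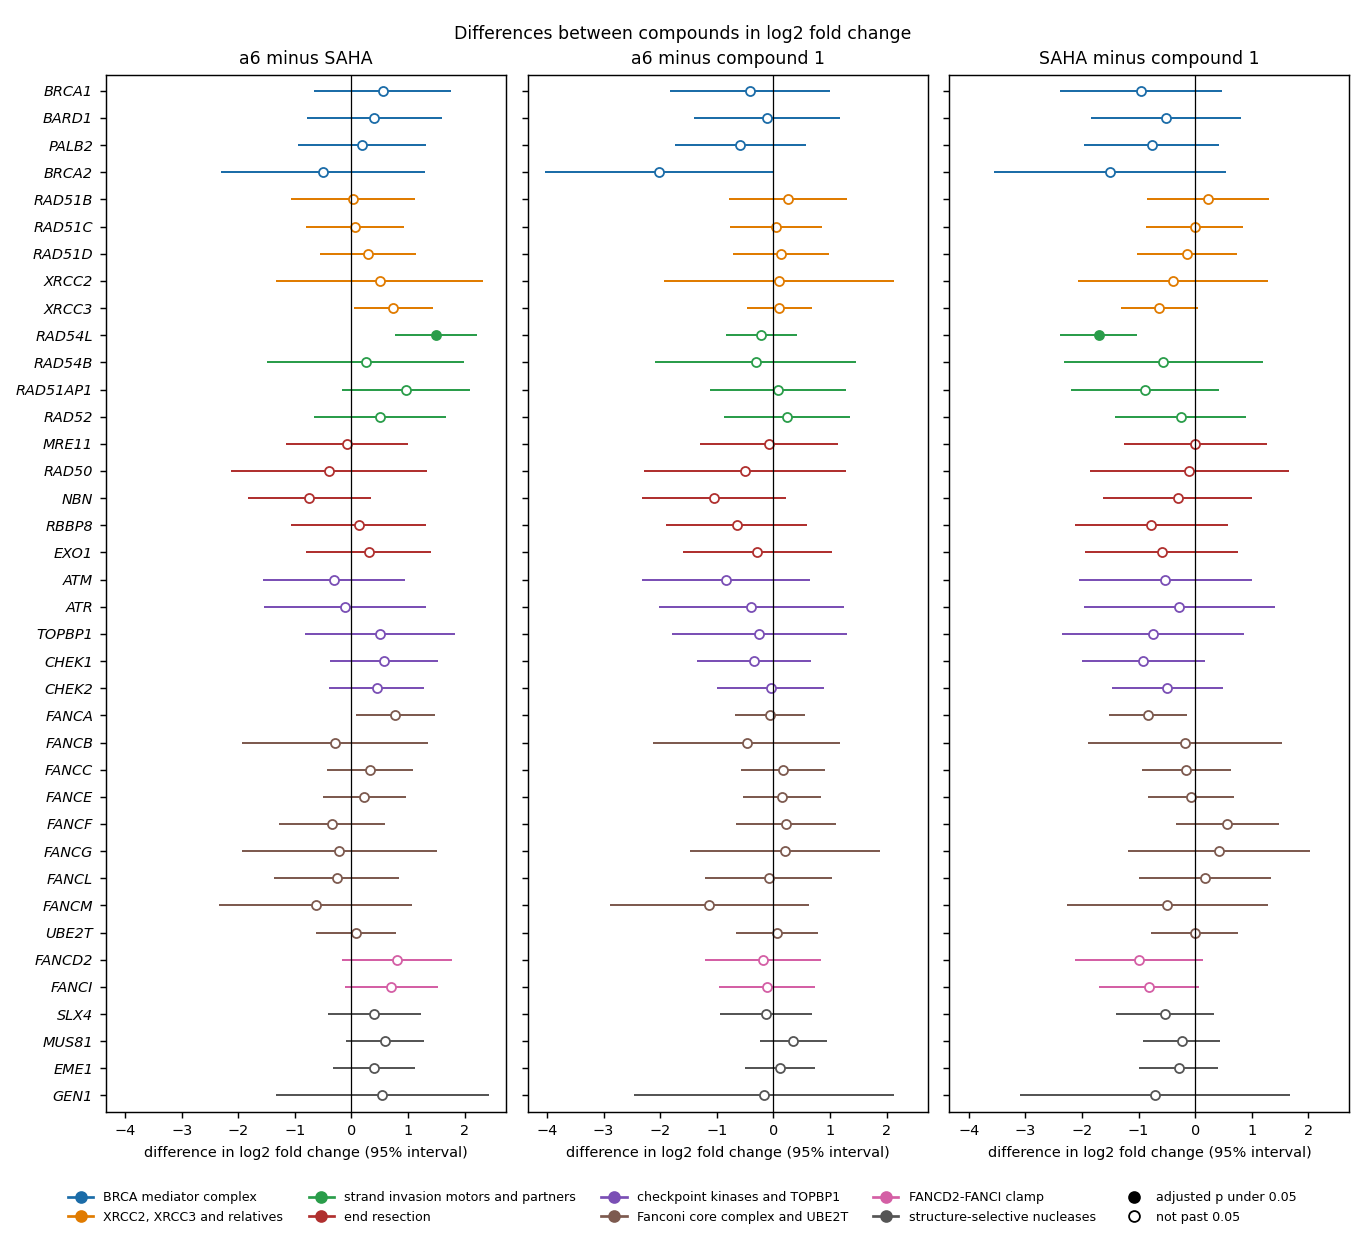
Difference in log2 fold change between compounds for each of the 38 genes (points) with its 95% interval (lines), computed from the authors' deposited tables; filled points have an adjusted p under 0.05 over all genes. RAD54L is filled in a6 minus SAHA (1.49) and in SAHA minus compound 1 (-1.71).

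Genes of 5 other repair lists were called with SAHA at a share near that of all genes, 8 of 87 measured or 9.20%, against 7.55% of all. Of 31 other homologous recombination genes measured with SAHA, 1 rose and 2 fell, with a median of -0.15. BABAM2, of the BRCA1-A complex, rose by 1.19 ± 0.29 in the authors' deposited table (adjusted p = 0.00157). H2AX, the histone that is phosphorylated at breaks, fell by 1.03 ± 0.29 (adjusted p = 0.00798), and HROB, which recruits the MCM8 and MCM9 helicase, by 1.02 ± 0.31 (adjusted p = 0.0205), in the authors' deposited table. Of 18 other Fanconi pathway genes 0 rose and 1 fell with SAHA, with a median of -0.17: UHRF1, a sensor of crosslinks and of hemimethylated DNA, fell by 1.01 ± 0.33 in the authors' deposited table (adjusted p = 0.0298). In the end joining list, 1 of 14 rose and 0 fell with a median of -0.18: XRCC4, the partner of DNA ligase IV, rose by 1.53 ± 0.33 in the authors' deposited table (adjusted p = 0.000272). Of 7 mismatch repair genes 0 passed, with a median of -0.18 and all 7 below 0. Of 17 base and nucleotide excision repair genes 1 rose and 2 fell with a median of -0.22. The damage recognition gene XPA rose by 1.23 ± 0.33 (adjusted p = 0.00535) in the authors' deposited table, while the ligase gene LIG3 and the glycosylase gene OGG1 fell by 1.04 ± 0.28 and 0.86 ± 0.29 (adjusted p = 0.00538 and 0.0371). With compound 1 and with a6, 0 genes of these 5 lists passed in the authors' DESeq2 test, and their medians lay between -0.01 and 0.08 with compound 1 and between -0.26 and 0.06 with a6.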

How the data were processed

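Only deposited comparison tables were used, with 0 columns of per-library values. Per the submitters' processing notes the authors used cutadapt, DESeq2 and GRCh38 (hg38); aligner, counter and software versions: not given in the sources used here. Per the file headers, the deposited tables hold for each gene a mean normalized count, on a signal scale, the log2 fold change, its standard error, the Wald score, and the raw and adjusted p-value. The headers do not say which libraries the mean count covers, and it was taken here as the mean over both groups compared. The mean count and log2 values are the authors' own. Checked on the values, the adjusted p-value is a Benjamini-Hochberg adjustment over each table.

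The 38 genes, the role groups and the other gene lists were chosen with earlier results of these data known. Calls are the authors' DESeq2 calls at an adjusted p under 0.05. Group means assume equal groups of 3. Differences between compounds used standard errors combined as the root of their summed squares and a two-sided z test with Benjamini-Hochberg adjustment over all shared genes, tested on simulated data. Intervals are 95% normal intervals. Transcript length, GC content, positions and exon overlap come from GENCODE 29, which matched 95.8%, 94.0% and 96.7% of the genes in the SAHA, compound 1 and a6 tables. Promoter windows come from RefSeq (GRCh38.p14) for 35 of the 38 genes (not RAD54B, NBN or FANCI). All 38 genes are named; other lists name up to 2 rising and 2 falling genes with the smallest adjusted p. Alternatives were a stricter adjusted p of 0.01, a 2-fold limit, adjustment over all 3 tables, a mean count of at least 10, centring, removal of a lowess GC trend (share 0.3), the authors' lists, division of the compound 1 statistic by its spread and an error correlation of 0.5. Some items are not reported here. Python 3.11.15, pandas 2.3.3, scipy 1.17.1 and statsmodels 0.14.6 were used.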

Additional observations from a re-analysis of the deposited data

How the results depend on the processing

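Of the 37 alternative counts of called genes, 29 stayed within 1.5 times. Counts of 0 that stayed at 0 are among these. A count of 0 cannot rise at a stricter adjusted p or with a 2-fold limit, so such counts do not show stability. With SAHA the 2 calls became 1, RAD54L, at an adjusted p under 0.01, with a 2-fold limit, with adjustment over all 3 tables and with the GC trend removed. With a6 the authors' lists held 1 gene, BRCA2, in place of 0. Of the differences, the error correlation of 0.5 gave 2 in a6 minus SAHA and 2 in SAHA minus compound 1 (RAD54L and FANCA), and an adjusted p under 0.01 gave 0 in a6 minus SAHA. Removal of the GC trend from the differences was chosen after seeing the data and kept RAD54L as the 1 call in both pairs with SAHA. Also added after seeing the data, the error correlation moved the genes at an unadjusted p under 0.05 to 7 in a6 minus SAHA, 2 in a6 minus compound 1 and 7 in SAHA minus compound 1, in place of 3, 1 and 2. It moved the intervals within 2-fold to 11 in a6 minus SAHA and 10 in SAHA minus compound 1, in place of 3 and 6.

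For single genes, 108 of 114 fold changes kept direction and side of the threshold with centring and 100 of 114 with the GC trend removed; FANCA with SAHA lost its call there. The changes of sign were all in uncalled genes near 0. Centring gave 0.040 for MRE11 with SAHA, -0.0025 for XRCC3, -0.0079 for RAD51AP1, -0.00028 for ATM and -0.011 for FANCE with compound 1, and 0.014 for CHEK1 with a6. Without the GC trend FANCE was at 0.099 with SAHA. In the same way with compound 1 PALB2, RAD51D, RAD51AP1, NBN, ATM, FANCL and FANCI were at -0.069, -0.015, -0.095, -0.028, -0.082, -0.078 and -0.040, and FANCA and MUS81 at 0.018 and 0.054. With a6 MRE11, CHEK1 and FANCL were at 0.0075, 0.035 and 0.029. The cause was not tested. Removing the GC trend moved the share of raised among called SAHA genes to 71.7%, from 60.0%, with 31 of the 38 genes below 0 and a median of -0.37. Dividing the compound 1 statistic by its spread of 0.504 called 54 genes, 0 of them among the 38.

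No paired analysis was possible because the columns carry no replicate number: the tables hold group comparisons, and no fit with a replicate block or without a library was run. Depth per library is unknown here.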

Other observations

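The 38 genes covered a wide range of levels in DMSO-treated cells. Per kb of the longest coding transcript, the mean normalized count in Ctrl, computed from the authors' deposited table for SAHA, was highest for UBE2T at 926, followed by XRCC3 at 411, FANCE at 391 and MUS81 at 378. It was lowest for RAD50 at 2.39, BRCA2 at 3.53, FANCM at 3.96, GEN1 at 5.65 and FANCG at 6.61 counts per kb. The ranks of RAD50 and XRCC3 are uncertain, because exons of other genes cover most of their exon bases, as given below. BRCA1 had 17.9, PALB2 19.4 and ATM 16.6 counts per kb. The Ctrl levels of the same genes in the a6 table were 0.978 times those in the SAHA table, by the median over all shared genes.

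Exons of other genes cover more than 50% of the exon bases of 3 of the 38 genes in GENCODE 29, so their counts are uncertain. KLC1 on the other strand covers 76.7% of XRCC3, FSBP on the same strand covers 59.1% of RAD54B, and the protein-coding model AC116366.3 on the same strand covers 79.7% of RAD50. With SAHA KLC1 was at -0.24 ± 0.26 and FSBP at -0.85 ± 0.67 in the authors' deposited table. No exon of another gene overlaps 13 of the 38.

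The deposited lists of G4-related genes name 1 of the 38, XRCC3, with 14 G4s, in the list for genes lowered by a6. In the authors' deposited table for a6 XRCC3 was at 0.11 ± 0.21, and it is not in the authors' list of genes lowered by a6. Of the 326 names in that G4-related list 118 are in the list of lowered genes. The same counts were 58 of 75 for genes raised by a6, and 535 of 723 and 292 of 440 for genes raised and lowered by SAHA. For compound 1 they were 7 of 7 raised and 7 of 11 lowered. The cause was not tested. In the RefSeq windows a G4 motif, with 4 runs of at least 3 G on either strand and 1 to 7 bases between runs, was in 8 of the 35 genes, or 22.9%, against 27.9% of all: BARD1, RAD51D, RAD54L, RBBP8, ATR, TOPBP1, FANCC and GEN1. With a6 these genes had log2 fold changes between -0.43 for ATR and 0.17 for RAD51D in the authors' deposited table.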
